A study of Mus musculus with 2 samples.

Results

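Gut peptide hormones and granins are 10 genes measured in single epithelial cells of the mouse anorectal junction, the border between the rectum and the stratified anal canal. Of these genes, 5 code for peptide hormones (Pyy, Gcg, Insl5, Sst and Ppy) and 5 for proteins of the secretory granule (Chga, Chgb, Scg2, Pcsk1n and Resp18). They were chosen by their measured values in these same libraries, so their spread over clusters is given as a description with no test. All 10 were found among the 31054 features of the normal library and the 32285 features of the wounded library.

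Cells came from C57/BL6J mice of the genotype K17CreERT2;R26RGFP, in which the keratin 17 promoter drives a tamoxifen-dependent Cre and the reporter marks Krt17+ cells of the transition zone and their progeny. All mice of either condition received 2 tamoxifen injections. The normal library was made without a wound, and the wounded library 1 week after the rectal crypts next to the transition zone were removed with EDTA and a brush. The mice were young adults, with an age given in weeks for mice of normal and injured conditions and in months for the wound. Each library was a pool of several mice, and cells were sorted for Epcam and against markers of leukocytes, endothelium and fibroblasts. There was 1 library per condition, so no p-value is given between conditions or clusters, and ranges in brackets are exact 95% intervals that cover counting error only.

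The normal library held 17617944 UMIs (unique molecular identifiers, each counting 1 captured RNA molecule) in 2564 barcodes, of which 939 cells were deposited with a cluster name. The wounded library held 88260050 UMIs in 17216 barcodes, with 4147 named cells. Median depth was 9724 UMIs per named normal cell and 10077 per named wounded cell. The wounded cluster named Hybrid was shallower, with a median of 2390 UMIs over 316 cells, against 8532 to 12616 in the other 5 wounded clusters. The libraries shared 1 barcode, and no named cell.

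Enteroendocrine cells are rare epithelial cells of the gut that store peptide hormones in dense-core granules and release them when nutrients or bacterial products reach the gut lumen. In the colon, L cells make peptide YY (Pyy), glucagon-like peptides (Gcg) and insulin-like peptide 5 (Insl5), D cells make somatostatin (Sst), and enterochromaffin cells make serotonin with the enzyme Tph1. Granins such as chromogranin A and B (Chga, Chgb) and secretogranin II (Scg2) fill the granules of all of them.

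The genes are named by their place in the mouse genome (GRCm38, GENCODE annotation). Pyy (ENSMUSG00000017311) lies at chr11:102106676-102107832 on the minus strand. Ppy (ENSMUSG00000017316), its paralog coding for pancreatic polypeptide, lies next to it at chr11:102099930-102101319, with 5356 bases between them. Gcg is at chr2:62474530-62483650, Insl5 at chr4:103017872-103026842 and Sst at chr16:23889573-23890958, all on the minus strand. Of the granule genes, Chga is at chr12:102554969-102565028 and Chgb at chr2:132781278-132795079 on the plus strand. Scg2 is at chr1:79434669-79440120 and Resp18 at chr1:75272199-75278415 on the minus strand, and Pcsk1n is at chrX:7919822-7924410 on the plus strand.

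The promoters of the members were searched for a pair of short motifs. All 10 matched RefSeq promoters of GRCm38.p6, 12 windows in all, each from 250 bases before to 50 after a start site. The cAMP response element TGACGTCA, which reads the same on either strand, was found for Sst, Chgb and Scg2, against 1.79% of all 32851 promoter windows. The 30 bases around it are shown because a hormone and a pair of granins share it, with the motif in capitals and each sequence read 5′ to 3′ on the strand of its gene.
Sst, chr16:23890874-23890903: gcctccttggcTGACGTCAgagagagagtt
Chgb, chr2:132781559-132781588: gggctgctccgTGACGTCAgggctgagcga
Scg2, chr1:79440076-79440105: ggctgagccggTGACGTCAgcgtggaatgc
The TATA motif TATAAA, searched on both strands, was found in windows of Gcg, Insl5, Ppy and Chga, against 13.6% of all windows. It is shown for the hormones Gcg, Insl5 and Ppy, where it stood before the RefSeq start site on the strand of the gene.
Gcg, chr2:62483660-62483689: gcctggagagcaTATAAAagcacagcaccc
Insl5, chr4:103026760-103026789: cagaggggttggTATAAAtggtccaagagg
Ppy, chr11:102101333-102101362: ggtgctgaggacTATAAAggggcacagcca
Counted from the RefSeq start site, the motif began at -24 in Gcg, -31 in Ppy and -49 in Insl5, and the element above at -48 in Sst, -72 in Chgb and -68 in Scg2. The GENCODE spans given above begin further upstream for Insl5, Sst, Chgb and Scg2, so the stretches shown for these genes lie within those spans. Neither motif was found in the window of Pyy, which says only that these letters are not in this window. A match is a description of the sequence, and whether a factor binds there was not measured. At 10 or more UMIs of each gene, Sst shared 0 named wounded cells with Chgb and 0 with Scg2. Only 3 cells held that many Sst UMIs, so each share was 0% [0 to 70.8]. Below the threshold, these 3 cells held 8, 3 and 1 Chgb UMIs. Chgb and Scg2 shared 6 cells at the threshold.

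In the wounded library nearly every UMI of the 10 genes lay in the cluster named Hybrid. It held 99.4% of the 23982 Pyy UMIs in named cells, 99.6% of the 1077 Gcg UMIs, 99.5% of the 2425 Insl5 UMIs, 99.8% of the 457 Sst UMIs and 98.6% of the 1478 Ppy UMIs. For the granule genes the share was between 98.7% for Chga and 100% for Scg2. Levels are given as CPM, the UMIs of a gene per 1000000 UMIs of the cluster. Since these are 3′ counts, they are not divided by gene length and compare 1 gene between clusters.

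Pyy reached 16067 CPM [15864 to 16273] in Hybrid cells, and between 2.69 CPM [1.88 to 3.74] in Regeneration cells and 9.24 CPM [6.54 to 12.7] in Rectum cells among the other wounded clusters. Chgb was next with 1765 CPM [1698 to 1834] in Hybrid cells, followed by Insl5 with 1627 CPM [1563 to 1693]. Ppy had 983.1 CPM [933.3 to 1035], Gcg 723.5 CPM [680.9 to 768.2] and Sst 307.5 CPM [279.9 to 337.0] in the same cells. Of the remaining granule genes, Chga stood at 634.5 CPM, Pcsk1n, which codes for an inhibitor of the convertase Pcsk1, at 507.8 CPM, Resp18, a granule protein, at 235.3 CPM, and Scg2 at 217.1 CPM. Scg2 had 0 UMIs in the other 5 wounded clusters. Weighting each Hybrid cell equally, the mean of per-cell CPM was lower for all 10 genes, for example 5587 for Pyy, 236.1 for Gcg, 576.3 for Insl5 and 964.6 for Chgb. Without its richest cell, Sst stood at 35.3 CPM, Ppy at 507.5 CPM and Chgb at 1161 CPM in Hybrid.

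In the other wounded clusters, 118 cells held 1 UMI of their highest hormone, 6 held 2, 7 held 3 to 9 and 1 held 21. Pyy had at least 1 UMI in 2.15% to 4.28% of the cells of each of them, and at most 6 UMIs in any of their cells but 1, the Rectum cell described below. In Hybrid, 22 of 316 cells had a Pyy UMI (6.96% [4.41 to 10.3]), and 19 of these had 10 or more. The share in stratified cells was 2.79% in Basal, 2.62% in Suprabasal, 3.23% in Regeneration and 2.15% in Wound_Stress cells. The source of these low counts was not tested. With each cell thinned to 2000 UMIs, a Pyy UMI remained in 18 of 184 Hybrid cells (9.78%) and in 4 of 564 Basal cells (0.709%), with 132 Hybrid and 9 Basal cells too shallow to enter.

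**Figure D1:**
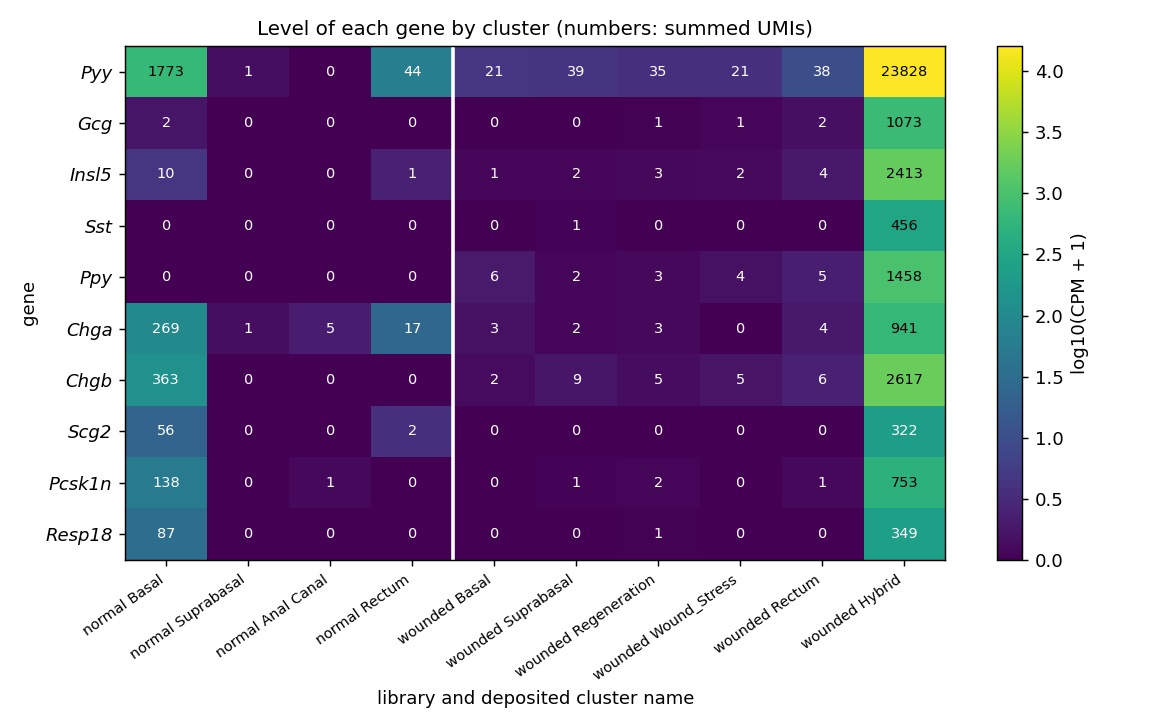
Heat map of the 10 genes in the 4 normal and 6 wounded clusters, coloured by log10(CPM + 1), with the summed UMIs printed in each field. The wounded column of high values is Hybrid (23828 Pyy UMIs), and the normal column with most UMIs is Basal (1773 Pyy UMIs).

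In the normal library Sst and Ppy had 0 UMIs in named cells, and most UMIs of each of the other 8 genes lay in the cluster named Basal. By cells, 3 of 257 Basal cells (1.17% [0.241 to 3.37]) and 1 of 63 Rectum cells (1.59% [0.0402 to 8.53]) held at least 10 UMIs of a hormone. Of 1818 Pyy UMIs in named cells, 1773 (97.5%) were in Basal and 44 in Rectum, giving 655.5 CPM [625.3 to 686.7] in Basal and 62.5 CPM [45.4 to 83.9] in Rectum. A single cell held 1684 of them, and without it Basal stood at 33.0 CPM. The 5 granule genes rested on few cells too, with Chgb at 44.5 CPM without its richest cell, against 134.2 CPM with it. Chga had 269 UMIs in Basal (99.4 CPM) and 17 in Rectum (24.1 CPM). Chgb had 363 UMIs, Pcsk1n 138 and Resp18 87 in Basal, and each had 0 in the 63 Rectum cells. Gcg had 2 UMIs in 1 Basal cell, and Insl5 10 UMIs in that same cell and 1 in a Rectum cell. Over the 939 named normal cells, the 0 UMIs of Sst and of Ppy gave 0 CPM [0 to 0.366] for each.

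Cluster against cluster, a gene was counted as past the threshold where its summed CPM differed by at least 1 log2 unit, among genes with at least 10 UMIs over both groups. For a group at 0 UMIs, 3 UMIs were used, and the ratio is an approximate bound that leaves out counting error in the other group. The members were selected on these values, so their counts are set beside the share of all genes and nothing is read from them. For normal Rectum over the other normal clusters, 7 of the 10 members had enough UMIs, 0 were higher (18.9% of the 12571 genes with enough UMIs were) and 5 were lower (13.5% of all such genes). Pyy differed by -1.60 [-2.07 to -1.17] on the log2 scale, and Chgb, at its bound, was 9.09-fold lower in Rectum. Without the cell richest in each gene, 2 members in place of 5 were lower.

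For Hybrid over the other wounded clusters, 10 of 10 members were higher, beside 17.3% of 15488 genes. The log2 ratio of summed CPM was 12.09 [11.87 to 12.33] for Pyy, 12.89 [11.53 to 14.77] for Gcg and 12.47 [11.66 to 13.43] for Insl5, and the lowest of the 10 was 11.01 [10.38 to 11.72] for Ppy. At its bound, Scg2 was 3032-fold higher. The median log2 ratio was 12.24 over the members, with Scg2 at its bound, and 0.21 over all genes with enough UMIs. Against Rectum alone, 10 of 10 were again higher, beside 16.5% of 12530 genes, with 10.76 [10.31 to 11.26] for Pyy. Without the 34 Hybrid cells described next, Pyy stood at 4.28 CPM [1.39 to 9.98] in the remaining 282 Hybrid cells. Those 34 cells were defined by UMIs of these same genes, so the fall of Pyy follows from the definition. With the hormone cell named Rectum left out too, the log2 ratio of Pyy to the other 396 Rectum cells was 0.04 [-1.75 to 1.54]. Of the 2 members with enough UMIs there, Pyy and Chgb, 1 was past the threshold, beside 14.6% of 12162 genes. This was Chgb, with 29.9 CPM [20.8 to 41.6] in Hybrid and a log2 ratio of 4.35 [3.09 to 5.89]. Over all other clusters without these cells, 3 of 5 members with enough UMIs were past it, beside 12.8% of 15325 genes, with 5.54 [4.77 to 6.32] for Chgb, 3.58 [1.49 to 5.30] for Chga and 1.58 [-3.84 to 4.33] for Insl5, which had 1 UMI in Hybrid.

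Between the libraries, wounded cells named Rectum or Hybrid were set against normal cells named Rectum. Here 10 of 10 members were higher, beside 14.2% of 12418 genes, with 6.09 [5.67 to 6.56] for Pyy and 8.25 [5.77 to 13.55] for Insl5. The naming bears on this directly, since 3 of the 4 normal cells with a hormone were named Basal. Over all named cells of either library, 5 of 10 members were higher, beside 14% of 15278 genes. These were the 5 hormones. Pyy stood at 552.9 CPM in wounded and 180.5 CPM in normal cells, a log2 ratio of 1.62 [1.55 to 1.69], and Gcg at 24.8 and 0.199 CPM. At their bounds, Sst was 35.4-fold and Ppy 114-fold higher in wounded cells, with 404 of the 457 Sst UMIs in 1 cell. The 5 granule genes differed by less than 1 log2 unit, with -0.40 [-0.59 to -0.21] for Chga, 0.76 [0.60 to 0.92] for Chgb, 0.37 [-0.04 to 0.80] for Scg2, 0.34 [0.08 to 0.61] for Pcsk1n and -0.10 [-0.44 to 0.26] for Resp18. With 1 library per condition and few normal cells behind these sums (4 hormone cells, and 2 granin cells that held 37.0% of the Chga and 32.2% of the Chgb UMIs), the condition and the library cannot be told apart.

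Which hormones share a cell was asked over hormone cells, defined as named cells with at least 10 UMIs of at least 1 of the 5 hormones. There were 20 among 4147 wounded cells (0.482% [0.295 to 0.744]) and 4 among 939 normal cells (0.426% [0.116 to 1.09]). With 1 library per condition, these shares describe the libraries and do not compare the conditions. Of the 20 wounded cells, 19 were named Hybrid (95.0%) and 1 Rectum. Just inside the threshold, the 4 lowest cells held 10, 21, 25 and 26 UMIs of their highest hormone, and the 4 highest cells outside it held 6, 5, 3 and 3. In the normal library the lowest cell inside held 15 and the highest outside 1. Wounded hormone cells held 1312 to 22659 UMIs.

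All 20 wounded hormone cells held at least 10 Pyy UMIs, from 10 to 4893. In the top cell Pyy was 25.7% of all its UMIs, and in 8 cells it exceeded 1000 UMIs. The 8 cells with at least 10 Gcg UMIs (61 to 276) were the same 8 cells, and 8 of 8 also held Insl5 (100% [63.1 to 100]). Of the 13 cells with Insl5 (15 to 443 UMIs), 13 held Pyy (100% [75.3 to 100]) and 8 held Gcg (61.5% [31.6 to 86.1]). At 10 or more UMIs, no cell thus had Gcg without Pyy and Insl5. At 1 or more UMIs, 11 of 13 cells with Gcg also held Pyy and 10 of 13 held Insl5. At 10 or more UMIs of Pyy and of Insl5, 5 cells held both with 0 to 3 Gcg UMIs. These 5 cells held 163 to 930 Pyy UMIs, below the 1160 to 4893 of the cells with Gcg. They were also shallower in part, with 3604 to 16583 UMIs against 9447 to 22659. As a share of all UMIs of a cell, Pyy overlapped, at 4.52% to 10.8% against 7.49% to 25.7%.

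Ppy was present at 10 or more UMIs in 8 of the 20 cells, from 11 to 715 UMIs, and in 7 of them beside Insl5. Whether a cell held Ppy did not follow its Pyy UMIs. Among the 8 cells with Ppy, the cell with most Pyy had most Ppy. The cell with least Pyy (37 UMIs) had least Ppy (11). Between them the order differed in part, with 48 and 201 Ppy UMIs beside 567 and 556 of Pyy. The cell with most Pyy (4893 UMIs) had 715 of Ppy, while the next (4381 UMIs of Pyy) had 0. Among the 8 cells with over 1000 Pyy UMIs, 3 held at least 10 Ppy UMIs and 5 held 0 to 3. Pyy and Ppy are paralogs, and how the counting split reads between them was not tested.

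Sst marked 3 cells, with 404, 27 and 25 UMIs. They held 169, 149 and 18 Pyy UMIs, and 0 UMIs of Gcg and of Insl5. A single cell thus gave 88.6% of the Sst UMIs in Hybrid. The combinations were Pyy with Gcg and Insl5 in 5 cells, these and Ppy in 3, Pyy with Insl5 and Ppy in 4, Pyy with Sst in 3, Pyy alone in 3, Pyy with Ppy in 1 and Pyy with Insl5 in 1.

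**Figure D2:**
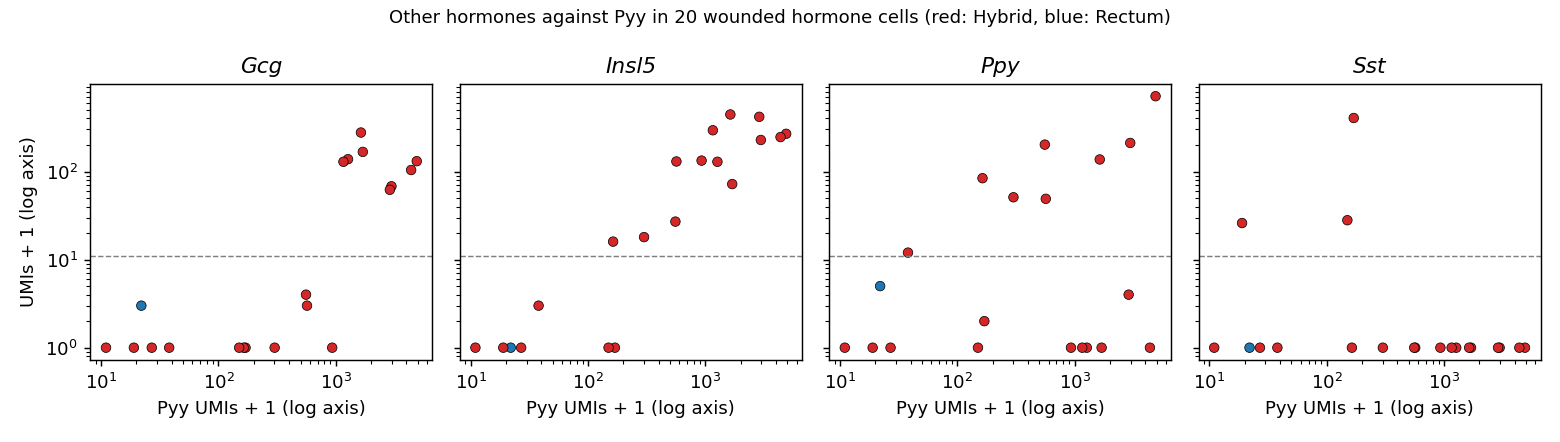
Each point is 1 of the 20 wounded hormone cells, with Pyy UMIs + 1 against Gcg, Insl5, Ppy or Sst UMIs + 1 on log axes, and the dashed line at the threshold of 10 UMIs. Gcg lies above the line only in the 8 cells with over 1000 Pyy UMIs, and Sst in 3 cells with 18 to 169 Pyy UMIs.

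The 3 cells with Pyy alone were unlike each other. In 1 Hybrid cell, 26 Pyy UMIs came with 148 Chga and 911 Chgb UMIs, the highest count of either granin in any named cell. The Rectum cell had 21 Pyy, 2 Gcg and 4 Ppy UMIs with 0 UMIs of each of the 5 granule genes, in 19825 UMIs of which 19.3% were mitochondrial. The last, at the threshold with 10 Pyy UMIs, had 4 Chga and 9 Chgb UMIs in 1312 UMIs.

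In the normal library, the 4 hormone cells all held Pyy, with 1684, 65, 40 and 15 UMIs. The first, named Basal, also had 10 Insl5 and 2 Gcg UMIs with 46 Scg2, 77 Pcsk1n and 60 Resp18 UMIs. The cells with 65 and 40, named Basal and Rectum, had 34 and 13 UMIs of the transcription factor Isl1. The cell with 15 Pyy UMIs, named Basal, had 116 Chga, 243 Chgb and 32 Tph1 UMIs. The 3 cells named Basal held 0 to 1 UMIs of Krt5 and of Krt14, keratins of the basal layer, and 7 to 27 of Krt8, a keratin of simple epithelium. The other 252 cells of that cluster without granin UMIs at the threshold held a median of 114 UMIs of the 6 stratified markers, and the 4 hormone cells 0 to 4.

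**Figure D3:**
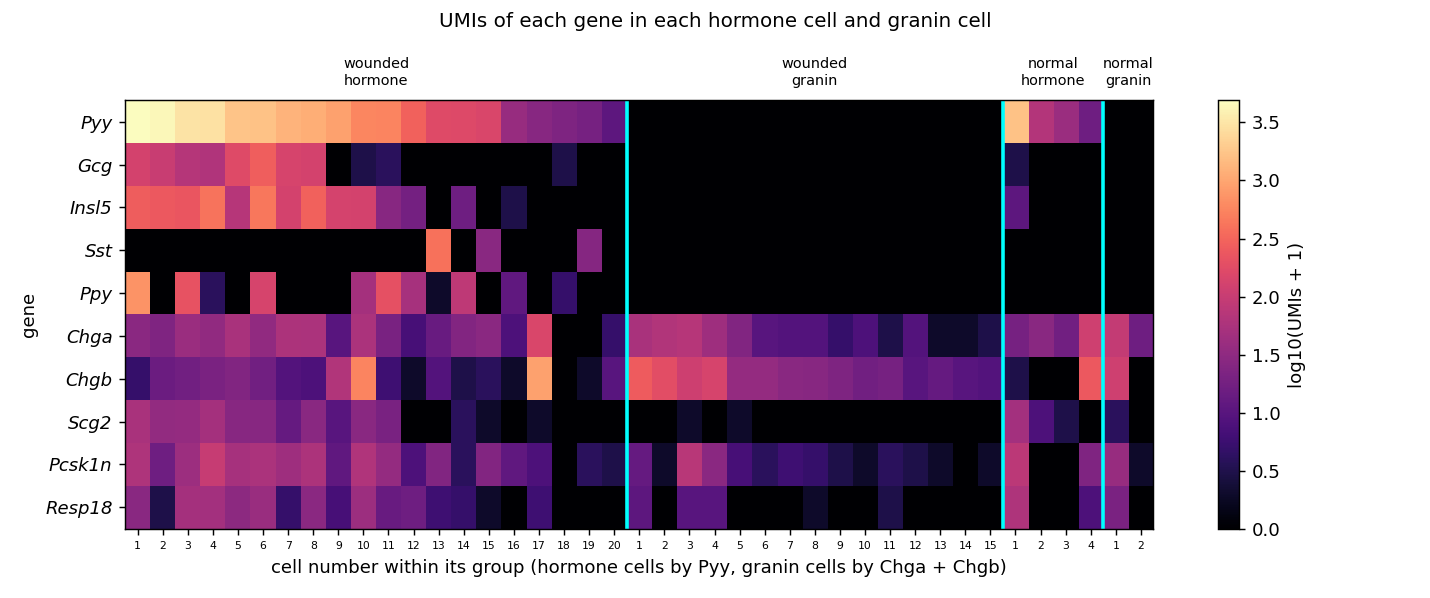
Heat map of log10(UMIs + 1) of the 10 genes in each wounded hormone cell (20), wounded granin cell (15), normal hormone cell (4) and normal granin cell (2). The granin cells were defined by fewer than 10 UMIs of each hormone and held 0. Chga and Chgb were seen in cells of both kinds. Chgb had 0 UMIs in some normal cells of each kind, and both had 0 in the wounded hormone cell named Rectum.

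The granins reached beyond the hormone cells. Granin cells were taken as named cells with at least 10 UMIs of Chga and Chgb together and fewer than 10 of each hormone. There were 15 wounded ones, all named Hybrid, and 2 normal ones, both named Basal. In the wounded library they held 31.8% of the Chga UMIs, 34.3% of the Chgb UMIs and 18.8% of the Pcsk1n UMIs, but 0.621% of the Scg2 UMIs and 0 UMIs of any of the 5 hormones. Hormone cells held 66.5%, 63.4%, 80.1% and 99.4% of the UMIs of these 4 genes. For Chgb this share rested on few cells. Of its 1675 UMIs in hormone cells, 1 cell held 911 and another 562. Scg2 was thus found almost wholly with the hormones, and Chgb with and without them.

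The 8 cells with Gcg had 4 to 23 Chgb UMIs and 22 to 57 Chga UMIs, while 562 Chgb UMIs were counted in a cell with 567 Pyy UMIs and 911 in the cell with 26. Scg2 had 12 to 53 UMIs in the cells with Gcg and 0 to 1 in the 3 cells with Sst. Pcsk1n had 15 to 99 and 3 to 24 UMIs in the same groups of cells.

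Of the 15 wounded granin cells, 8 had 12 to 256 Chgb UMIs with 0 to 3 of Krt14. Each of these had Tph1 (1 to 12 UMIs), Neurod1, a transcription factor of endocrine cells (1 to 23), and the sodium channel gene Scn3a (1 to 12). The other 7 had 8 to 35 Chgb UMIs with 52 to 72 UMIs of Krt14 and 8 to 17 of Krt5, 15.3% to 22.8% mitochondrial UMIs, and 0 to 1 UMIs of Neurod1 and Scn3a. They also had 0 to 3 UMIs of Tph1, which overlaps the first 8, and 1 to 4 of Sct. The part that stratified RNA or a second cell in the droplet had in these 7 was not tested. This split by Krt14 was made after the values were seen.

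The label was checked against enteroendocrine markers that are no members. All 15 had UMIs in the 20 wounded hormone cells, and 10 were found in at least 10 of these cells. Together they stood at 4732 CPM there, against 308.9 CPM over all named wounded cells. In the 4112 named wounded cells that were neither hormone nor granin cells, 12 of the 15 had a UMI. The list includes Cpe, which was not limited to these cells. The calcium sensor gene Scgn had 147 UMIs in 16 hormone cells and 0 in the 15 granin cells. In the wounded hormone cells the 6 tuft and 4 leukocyte markers had 0 UMIs, and the 4 fibroblast markers 1. The 7 goblet markers had 53 UMIs in 15 cells (242.1 CPM, against 1707 over all named wounded cells), led by Agr2 with 20 and Spink4 with 19, and with 2 of the mucin Muc2. The value over all named cells came mostly from Rectum cells (16989 CPM). In Basal, Suprabasal, Regeneration and Wound_Stress cells these markers stood at 88.15 to 108.8 CPM, below the hormone cells. The 6 stratified markers had 93 UMIs in 15 cells (424.8 CPM, against 8681), with 4 of Krt5 and 59 of Krt14, of which 30 were in 1 cell. The 8 colonocyte markers had 67 UMIs, 50 of them of Krt20, the 5 crypt stem markers 7, and the 5 endothelial markers 18, all of Prox1. The 5 Merkel cell markers had 121 UMIs in 19 cells (552.7 CPM, against 49.2 over all named cells), from Isl1 (54), which is also on the enteroendocrine list, Krt20 (50) and Piezo2 (17), with Atoh1 and Sox2 at 0. The 8 markers of enteric neurons and glia had 106 UMIs in 11 cells (484.2 CPM, against 7.31), 99 of them of Uchl1, with Sox10 at 0. In the 4 normal hormone cells the Merkel cell markers had 99 UMIs in 3 cells (2649 CPM, against 102.0 over all named normal cells). Isl1 gave 48 of these UMIs, and the rest came from markers that are not on the enteroendocrine list. The 15 enteroendocrine markers had 238 UMIs in these 4 cells (6368 CPM, against 851.8). The part of cells of such other types in the hormone values was not tested. The wounded hormone cell named Rectum stood apart, with 1 UMI over the 15 enteroendocrine markers. The cluster named Hybrid thus held the 19 hormone cells and 15 granin cells beside 282 others.

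Among other processing and granule genes, the hormone cells held Scg5, a chaperone of the convertase Pcsk2, with 280 UMIs in 16 cells, Pam, the enzyme that amidates peptides such as peptide YY, with 218 in 17, and Pcsk1, the convertase that cuts proglucagon in L cells, with 17 in 9. Pcsk2, which cuts it in pancreatic alpha cells, had 0. Of the 12 genes on the list, 11 had a UMI, and the 4 with most UMIs were the members Chgb (1675), Chga (634), Pcsk1n (606) and Scg2 (320). In the 4112 named wounded cells that were neither hormone nor granin cells, 11 had a UMI too, so such counts do not mark the hormone cells. The carboxypeptidase gene Cpe had 227 UMIs in 18 hormone cells (1037 CPM), but its 803.9 CPM in wounded Suprabasal cells show that it is no marker of these cells here.

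Of 14 other gut hormones and amine genes, 10 had a UMI in the hormone cells, and 10 in the 4112 named wounded cells of neither kind. Secretin (Sct) led with 203 UMIs in 15 cells, followed by Cck, cholecystokinin, with 130 in 11, Ddc with 102 in 17 and ghrelin (Ghrl) with 50 in 3. The 3 Ghrl cells were among the 4 with most Pyy, with 25, 15 and 10 UMIs. A cell with 4381 Pyy UMIs gave 77 of the Cck UMIs. Gip, Npy, Penk and Vip had 0. Tph1 had 1 UMI in the 20 hormone cells and 58 UMIs in 13 of the 15 granin cells, and Slc18a1, the amine transporter of enterochromaffin cells, 8 and 18. The 5 enterochromaffin markers (Tph1, Ddc, Slc18a1, Lmx1a and Tac1) together did not set the groups apart so sharply. They had 115 UMIs in 18 hormone cells (525.3 CPM), 102 of them of Ddc, and 161 UMIs in 14 granin cells (1409 CPM). Over all named wounded cells they stood at 13.2 CPM.

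Of 16 enteroendocrine transcription factors, 15 had a UMI in the hormone cells, and 14 in the 4112 named wounded cells that were neither hormone nor granin cells. Etv1 had 73 UMIs in 14 cells, Neurod1 63 in 16, Insm1 60 in 17 and Isl1 54 in 16, while Neurog3, the factor of endocrine progenitors, had 0. Isl1 had 1 UMI in the granin cells, Etv1 1 and Pax6 3, beside 35 of Pax6 in the hormone cells. Hhex, a factor of somatostatin cells, had 41 UMIs in 3 hormone cells. These were the 3 cells with Sst, with 19, 19 and 3 Hhex UMIs. Hhex was not limited to them, with a UMI in 22 of the 713 wounded cells named Rectum or Hybrid. In the 4 normal hormone cells 14 of the 16 factors had a UMI, led by Isl1 with 48 and Neurod1 with 27, and Hhex and Neurog3 had 0. In the 933 named normal cells that were neither hormone nor granin cells, 11 had a UMI.

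**Figure D4:**
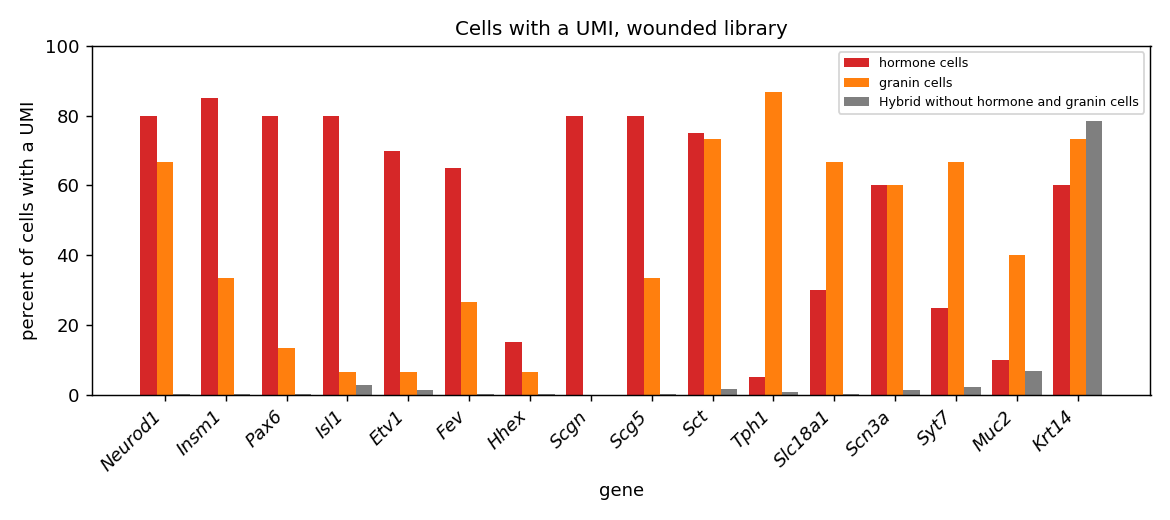
Bars give the percent of cells with at least 1 UMI of each gene in the 20 wounded hormone cells, the 15 granin cells and the other 282 Hybrid cells, on an axis from 0. Scgn, Isl1, Etv1 and Pax6 stood higher in hormone cells (80.0% for Scgn against 0%), and Tph1, Slc18a1 and Syt7 in granin cells (86.7% for Tph1 against 5% in hormone cells).

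Genes of exocytosis and excitability were spread thinly, with 15 of 16 seen in the hormone cells. In the 4112 named wounded cells that were neither hormone nor granin cells, 14 were seen. Cacna1a and Cplx2 had 38 UMIs each, in 17 and 16 cells, and Snap25 34, while Rab3b had 0. Syt7 had 10 UMIs in 5 hormone cells and 28 in 10 granin cells. Of 10 genes listed as nutrient and bile acid receptors, 6 were seen in the hormone cells, and 6 in those 4112 cells. The list includes the somatostatin receptor Sstr5, which is seen in hormone cells and is also on the next list. The short-chain fatty acid receptor Ffar2 led with 38 UMIs in 10 cells, then the long-chain receptors Ffar4 with 12 in 7 and Ffar1 with 8 in 5, and the bile acid receptor Gpbar1 with 9 in 8. Ffar3, Casr, Gpr142 and Lpar5 had 0.

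The receptors of the members' own peptides were scarce. In the 4112 named wounded cells that were neither hormone nor granin cells, 6 of the 13 had a UMI. Of 13, 5 had a UMI in the hormone cells, led by the somatostatin receptors Sstr1 (11 UMIs in 8 cells), Sstr3 (6) and Sstr5 (6), with Npy1r, a receptor of the peptide YY family, at 2. Glp1r, Glp2r, Gcgr and Npy2r had 0. Outside these cells Npy1r was counted in Rectum, with 55 UMIs in 44 of 397 wounded cells (13.4 CPM) and 14 UMIs in 10 of 63 normal cells (19.9 CPM). Glp2r had 1 UMI in all 4147 wounded cells.

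Genes most like a member were sought over the 713 wounded cells named Rectum or Hybrid, by Pearson's r of ln(1 + UMIs per 10000) among genes with a UMI in at least 10 of them. The same few cells, their depth and the shared library carry each r, and it is given without a test. For Pyy the nearest were Scgn (0.92), Insl5 (0.89), Avpr1b (0.87), Scg5 (0.86) and Scg2 (0.86). For Gcg they were Scg2 (0.87), Insl5 (0.85), Scg5 (0.79), Pyy (0.77) and Gm47071 (0.76), and for Insl5 Scg2 (0.92), Pappa2 (0.90), Pyy (0.89), Gcg (0.85) and Scgn (0.83). Chgb had other neighbours, namely Chga (0.88), Map1b (0.84), Pcsk1n (0.81), Neurod1 (0.80) and Scn3a (0.74). The values for Sst, led by Hhex (0.84) and Spock2 (0.71), rest on 3 cells. Over the 63 normal Rectum cells, where 1 cell held 40 of 44 Pyy UMIs, r between Pyy and Scgn was 0.94 and that with Insl5 0.15. Over the 320 normal cells named Rectum or Basal these were 0.76 and 0.72. Gcg, Sst and Chgb had no UMI in the 63 Rectum cells.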

How the data were processed

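Single cells were sequenced with 10x Genomics 3′ chemistry, 1 library per condition. Raw UMI counts for each gene and barcode, aligned to mm10 per the labels, were deposited by the authors (Cell Ranger 3.1.0 and Seurat 3.2.2 in the submitters' processing notes; the matrix headers name 3.1.0 for the normal and 4.0.0 for the wounded library). The authors also deposited, for their filtered cells (over 200 and under 5000 genes, under 25% mitochondrial UMIs, which 1 of the 939 normal cells did not meet), values on the natural log scale with a cluster name per cell. Names were taken from those tables and values from the counts. The sort gated against doublets per the methods, and no doublet caller was run here. Counts were summed over cells and given per 1000000 UMIs, with exact Poisson (levels), Clopper-Pearson (shares) and binomial (ratios) intervals at 95%, using Python 3.11.15, numpy 2.4.6 and scipy 1.17.1. A group at 0 UMIs was set to 3 UMIs. Shares were also computed at 2000 UMIs per cell. The ratio was tested on simulated sums with counting error only. These hold neither UMIs gathered in a few cells nor ratios as large as those of the members in Hybrid. All members are named. Of each gene list the 4 genes with most UMIs in hormone cells, defining genes at 0 and, chosen after their values were seen, genes that differed between cell groups are named. A few genes of these lists are not reported here. The members and lists were chosen with earlier results of these data known. Alternatives were a threshold of 1, 3 or 30 UMIs or 1000 CPM, other barcodes, per-cell means, removal of the richest cell, and other minimums.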

Additional observations from a re-analysis of the deposited data

Results flagged for a closer look

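In the wounded library, 11 of the 13069 barcodes outside the deposited table held at least 10 UMIs of a hormone (0.0842% [0.0420 to 0.151]), beside 0 of 1625 in the normal library (0% [0 to 0.227]). They were looked at because they are signal in cells that none of the comparisons used. None passed the stated filters: 8 had at least 25% mitochondrial UMIs and the other 3 at least 5000 detected genes. All 11 held Pyy, with 10 to 1761 UMIs. Insl5 reached 10 UMIs in 7 of them, Gcg in 4, Ppy in 3 and Sst in 1. The 4 with Gcg (13 to 63 UMIs) also held Pyy and Insl5, and the cell with 20 Sst UMIs held 15 of Pyy and 0 of Gcg and Insl5. What made these barcodes fail the filters was not tested.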

How the results depend on the processing

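No paired analysis was possible because each condition is 1 library. Of the count alternatives, removal of the cell richest in each gene left 2 members past 1 log2 unit for normal Rectum over the other clusters, in place of 5. The alternatives that follow were in part chosen after seeing the data. Hormone and granin cells were defined by UMIs of these same genes. Without them, 3 of the 5 members with enough UMIs were past 1 log2 unit for Hybrid over the other clusters. For Hybrid over Rectum 1 of 2 was, in place of 10 of 10 in each comparison. Over all named cells of either library 5 were past it for wounded over normal, in place of 10. A threshold of 1 UMI gave 18 normal and 155 wounded hormone cells in place of 4 and 20, with 14.8% of the wounded ones named Hybrid and 66.7% of Insl5 cells also with Pyy. The share named Hybrid was 71.4% at 3 UMIs and 100% at 30 UMIs, against 95.0%. Every barcode of the wounded library without filters gave 31 hormone cells. The other alternatives left the count within 1.5 times the reported one or the share within its interval. Of 40 levels (10 genes in normal Basal and Rectum and wounded Hybrid and Rectum), 27 fell below their interval without the richest cell, and by the mean of per-cell CPM 15 left it, 5 upward and 10 downward. The 4 and 20 hormone cells and the depth of each cell limit the precision.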

Other observations

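Cck, the gene of the gut hormone cholecystokinin, was not limited to hormone cells. In the wounded library it was counted in 753 of 991 Regeneration cells (76.0%, 262.7 CPM), in 581 of 838 Wound_Stress cells (69.3%, 269.4 CPM) and in 499 of 1032 Suprabasal cells (48.4%, 119.7 CPM), but in 18 of 573 Basal cells (3.14%, 9.93 CPM). In the normal library it was counted in 139 of 257 Basal cells (54.1%, 217.0 CPM) and in 0 of 63 Rectum cells. All 14 other gut hormone and amine genes together, Cck among them, stood at 46.0 CPM in normal Suprabasal and 5.25 CPM in normal Anal Canal cells. Whether cells of the same cluster name match between the libraries was not tested. Over all named cells Cck stood at 69.9 CPM in the normal and 165.6 CPM in the wounded library. With 1 library per condition this is a description.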
